A study of Caenorhabditis elegans with 15 samples.

Results

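Annular furrow collagens are the 6 cuticle collagens encoded by dpy-2, dpy-3, dpy-7, dpy-8, dpy-9 and dpy-10. They were taken by name from the 46926 genes of a table of averaged normalized counts, and all 6 were measured in every genotype. No cut on a measured value was used, but the choice was made with earlier results of these data known. The counts came from polyA RNA of whole Caenorhabditis elegans at the fourth larval stage (L4), in 15 libraries: 6 from wild-type N2 animals and 3 from each mutant, whose genotypes read mec-8 (e398) KO, u74 KO or u218 KO, with N2 given as the strain throughout. The mutant groups are called e398, u74 and u218 here, since the u74 and u218 labels name no gene and the nature of the 3 lesions is not given. The deposited counts are named as those of MEC8 mutants, which does not say whether u74 and u218 lie in mec-8. MEC-8 is an RNA-binding protein that regulates alternative splicing, and the table gives 1 average per genotype and gene, so it shows neither splice forms nor replicate error.

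The cuticle of the nematode is an extracellular matrix made mostly of collagens, which the epidermis secretes anew before each moult. Its surface carries circumferential annuli separated by narrow furrows, and loss of any of these 6 collagens removes the furrows and leaves short, fat (dumpy) animals. DPY-7 is the furrow component most often used as a marker of these bands, and dominant mutations of dpy-10 make animals roll. Transcription of cuticle collagens is pulsed within each larval stage, with furrow collagens among those made early in the cycle. Animals without furrows also turn on osmotic, antimicrobial and detoxification genes through signals in the epidermis.

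In the WBcel235 annotation all 6 are protein-coding genes. On chromosome X, minus strand, lie dpy-3 (WBGene00001065; 2144605 to 2145647), dpy-7 (WBGene00001069; 7536467 to 7537792) and dpy-8 (WBGene00001070; 5148804 to 5150476). The gene dpy-9 (WBGene00001071) lies on chromosome IV, minus strand, from 257403 to 259204. On chromosome II, dpy-10 (WBGene00001072; minus strand, 6710149 to 6712227) and dpy-2 (WBGene00001064; plus strand, 6714292 to 6715971) point away from each other, with 2064 bases between their starts. Joined exons span 961 bases in dpy-3, 1049 in dpy-9, 1147 in dpy-7, 1324 in dpy-2, 1513 in dpy-8 and 1593 in dpy-10. Of the dpy-10 exon bases, 49.0% also lie in exons of T14B4.19 on the same strand, and 7.20% of those of dpy-8 lie in exons of C31H2.14 on the opposite strand. How reads in such stretches were assigned is not given, so the level of dpy-10 against the others is uncertain. In any genotype T14B4.19 itself averaged at most 2.59 normalized counts and C31H2.14 at most 134.

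Some facts of the libraries touch every result below. Size factors, by which the counts of each library were divided, could be read from the smallest values of each column. They ran from 0.476 to 0.685 in e398, from 1.46 to 1.95 in u74 and from 0.831 to 1.99 in u218, while 3 wild-type libraries lay between 1.59 and 1.82 and the other 3 between 0.471 and 0.531. Among 994 genes averaging 5 to 8 in wild type, whose whole reads could be recovered, all 3 wild-type libraries of small size factor lay above all 3 of large size factor in 40.0%, and below them in 9.46%. In the same genes, with 1 added to each value, the highest wild-type library stood a median of 18-fold above the lowest. Of them, 96.3% had a gap of 4-fold or more. Such averages rest on few reads per library, so these gaps do not give the spread of abundant genes such as the members. Nor are they comparable with the mutant gaps that follow, which are for higher averages. Among genes averaging 50 to 100, a 4-fold or larger gap to both other libraries of the group was seen for u218 library 3 in 37.7% of 1279 genes, for e398 library 2 in 11.5% of 1311, and for no u74 library in more than 0.249% of 1205. Among genes with recovered reads, none of them a furrow collagen, limma called 50.4% in u74 against e398, 36.9% in u218 against e398 and 17.4% in u218 against u74 at an adjusted p under 0.05. Against wild type it called 2.56% in e398, 3.84% in u74 and 4.27% in u218, each of them higher in the mutant. Wild-type averages had to lie below 8 for this and mutant averages below 100. A gene lower in a mutant thus entered only with few reads in wild type. The part of the wild-type spread in these 3 shares was not tested. They are neither comparable with those between mutants nor read as the extent of change. The furrow collagens were too abundant for their reads to be recovered. Between 9 (dpy-3 in e398) and 264562 (dpy-8 in u218) sets of whole reads gave the same average in the mutants. Their values are therefore averages over libraries that cannot be separated, with no test, and no result could be given without u218 library 3. Transcripts of mec-8 itself averaged 1956 normalized counts (wild type), 1069.6 (e398), 2239 (u74) and 3619.8 (u218), which did not check the labels, since a lesion need not remove its transcript.

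Furrow collagen averages followed a pair of patterns, described here after the values were seen. The genes dpy-2, dpy-3, dpy-7 and dpy-10 were highest in u218, whereas dpy-8 and dpy-9 were highest in wild type and e398. In u74, 5 of the 6 genes had their lowest average, the exception being dpy-3. In whole animals, fewer epidermal cells making a transcript and less transcript per cell cannot be told apart.

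Among the genes highest in u218, dpy-7 averaged 4904 normalized counts (wild type), 3252 (e398), 2726 (u74) and 19986 (u218). The average of dpy-3 was 3213 (wild type), 1891 (e398), 2450.3 (u74) and 15755 (u218). Both were thus low and of like size in e398 and u74, in opposite order, and stood well above every other genotype in u218. For dpy-2, the averages were 6733, 4738, 2427 and 15766 in wild type, e398, u74 and u218. Its neighbour dpy-10 averaged 3749, 2476, 1372 and 10159 in the same order. Both neighbours had the order u218, wild type, e398, u74, and the level of dpy-2 per kb of exon was 2.16, 2.30, 2.13 and 1.87 times that of dpy-10 in wild type, e398, u74 and u218. The size of this ratio is uncertain, because of the exon bases that dpy-10 shares with T14B4.19. Of the 4 genes, dpy-3 had the widest range, 8.33-fold from e398 to u218, and dpy-2 the narrowest, 6.50-fold from u74 to u218.

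The other 2 genes were more abundant in wild type. Averages of dpy-8 were 51402 normalized counts (wild type), 45338 (e398), 3973 (u74) and 24985 (u218). Those of dpy-9 were 34758, 28282, 2134 and 15690 in the same order. Both genes had the order wild type, e398, u218, u74, with a range of 12.9-fold for dpy-8 and 16.3-fold for dpy-9. Per kb of exon the level of dpy-8 was 1.03, 1.11, 1.29 and 1.104 times that of dpy-9 in wild type, e398, u74 and u218, so the 2 kept close to each other on different chromosomes.

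**Figure D1:**
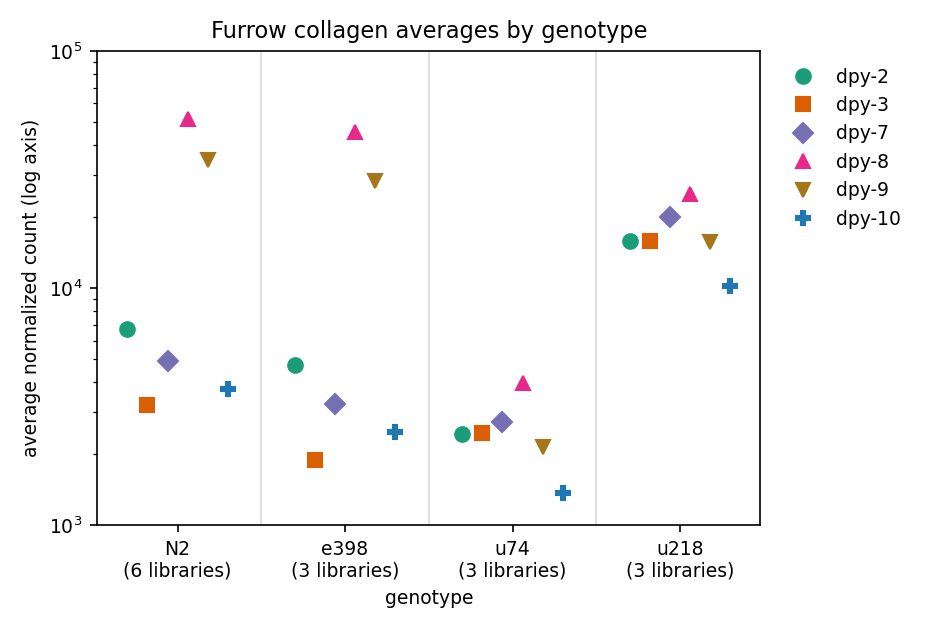
Average normalized count (log axis) of each furrow collagen in the 4 genotypes; each symbol is the authors' average over the libraries of a genotype, and no error can be drawn. In wild type and e398 dpy-8 and dpy-9 stand at 28282 or higher with the other 4 at 6733 or lower, whereas in u74 and u218 all 6 lie close together.

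The make-up of the furrow collagen transcripts was alike in wild type and e398, and alike in u74 and u218. These shares compare genes within 1 column and so do not depend on the scaling between genotypes. Of the summed level per kb of exon, dpy-8 and dpy-9 together held 81.7% in wild type and 85.1% in e398, but 37.9% in u74 and 37.7% in u218. Per kb, dpy-8 stood at 33974 and dpy-7 at 4276 normalized counts in wild type, whereas in u218 dpy-8 stood at 16514 and dpy-7 at 17425. The share of dpy-3 was 4.07% (wild type), 2.94% (e398), 20.8% (u74) and 19.6% (u218). That of dpy-7 was 5.20%, 4.24%, 19.4% and 20.8%, that of dpy-2 was 6.19%, 5.35%, 14.9% and 14.2%, and that of dpy-10 was 2.86%, 2.32%, 7.01% and 7.63%, each in the order wild type, e398, u74 and u218. The summed level of the 6 genes was 82166 normalized counts per kb (wild type), 66862 (e398), 12281 (u74) and 83575 (u218). With the deposited scaling, wild type and u218 thus had sums of like size with a different make-up, and u74 and u218 a like make-up with different sums. Unlike the shares, these sums depend on the scaling between genotypes. The whole column summed to 9.72e+07 normalized counts for wild type, 1.27e+08 for e398, 6.31e+07 for u74 and 6.88e+07 for u218. Of its column, the furrow collagens made up 0.108% for wild type but 0.149% for u218. For e398 they made up 0.0678% and for u74 0.0239%. The genotypes of like make-up also had like size factors in part, small in e398 and in 3 wild-type libraries and large in u74 and in 2 of the 3 u218 libraries, and the part of this in the make-up was not tested.

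**Figure D2:**
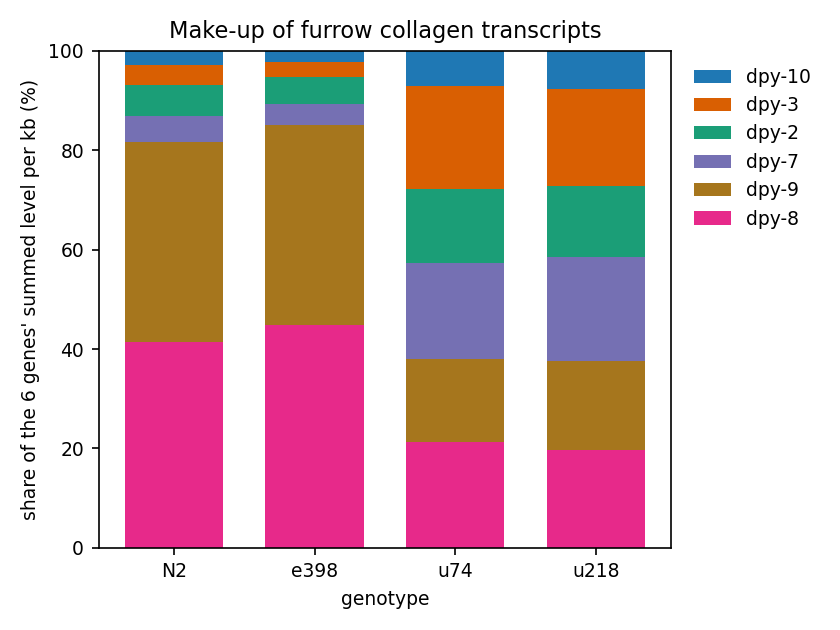
Share (%) of each gene in the summed level per kb of exon of the 6 furrow collagens, 1 bar per genotype. The combined share of dpy-8 and dpy-9 is 81.7% (N2), 85.1% (e398), 37.9% (u74) and 37.7% (u218).

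The comparison of e398 with wild type asks whether the e398 lesion goes with another level of furrow collagen transcripts. All 6 averages were lower in e398 by less than 2-fold, the size of difference counted as higher or lower here, where 11.4% of 17398 genes were higher by that much and 19.9% lower. The log2 ratios, of averages with 1 added, ran from -0.76 for dpy-3 to -0.18 for dpy-8, with a median of -0.55 against -0.05 over all genes considered. The ratios of dpy-7 (-0.59), dpy-10 (-0.60) and dpy-2 (-0.51) lay close to each other, and that of dpy-9 was -0.30. Genes averaging at least 20 normalized counts in either genotype were considered here and below.

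In u74 against wild type, 4 of 6 furrow collagens were at least 2-fold lower and none was higher, where 29% of 17004 genes were lower and 6.47% higher. The largest differences were those of dpy-9 (log2 ratio -4.02, or 16.3-fold) and dpy-8 (-3.69, or 12.9-fold), below which lay 3.35% and 4.68% of all genes. The chromosome II neighbours dpy-2 (-1.47) and dpy-10 (-1.45) were also lower, while dpy-7 (-0.85) and dpy-3 (-0.39) stayed within 2-fold. The median was -1.46, against -0.07 over all genes. Over all genes, 18.3% of those past 2-fold were higher with the deposited scaling and 30.6% with TMM factors, while the same number of members, 4, were lower with either.

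In u218 against wild type, 4 furrow collagens were at least 2-fold higher and 2 lower, where 10.4% of 17087 genes were higher and 35.8% lower. The 4.90-fold higher average of dpy-3 (log2 ratio 2.29) had 99.3% of all genes below it, and the 4.07-fold higher average of dpy-7 (2.03) had 99.0%. Those of dpy-10 (1.44) and dpy-2 (1.23) were also higher. The ratios of dpy-8 (-1.04) and dpy-9 (-1.15) lay just past 2-fold, and with TMM factors in place of the deposited scaling they were -0.73 and -0.84, within 2-fold. The median ratio over all genes was -0.26 in this comparison, and taken relative to it dpy-8 was at -0.78 and dpy-9 at -0.88. Over all genes, 22.6% of those past 2-fold were higher with the deposited scaling, 35.0% after this recentring and 37.1% with TMM factors. No mutant average of a furrow collagen exceeded 6 times its wild-type average, so 1 wild-type library could in principle have lain above each of them.

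Of the 6 comparisons, u218 against u74 had the largest median ratio in size and the narrowest spread of ratios, although dpy-8 and dpy-9 in u74 against wild type or e398, and dpy-3 in u218 against e398, differed by more. All 6 furrow collagens were higher in u218, by 6.29-fold (dpy-8) to 7.40-fold (dpy-10), where 18.7% of 16279 genes were higher by 2-fold or more and 20.6% lower. The log2 ratios were 2.65 for dpy-8, 2.68 for dpy-3, 2.70 for dpy-2, 2.87 for dpy-7, 2.88 for dpy-9 and 2.89 for dpy-10. For each member at least 98.97% of all genes had a smaller ratio. The median of the 6 was 2.79, against 0.15 over all genes, and it was 2.63 relative to that shift. This comparison uses none of the wild-type or e398 libraries, but it rests on u218 library 3 along with the others, which was apart from them for many genes of lower abundance. The largest value a single u218 library could hold is 3 times the average, for instance 59959 for dpy-7, and the split among the libraries was not recovered.

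The comparisons with e398 share its column with each other and gave the same pair of patterns. Against e398, u74 had dpy-8 (log2 ratio -3.51) and dpy-9 (-3.73) lower, where 37.2% of 17376 genes were lower and 27.8% higher. The other 4 lay within 2-fold, from -0.97 for dpy-2 to 0.37 for dpy-3, and the median over all genes was -0.20. With TMM factors the balance over all genes turned, from 4839 higher and 6456 lower to 5995 higher and 5606 lower, while dpy-8 and dpy-9 were still the only members past 2-fold. Against e398, u218 had dpy-3 (3.06), dpy-7 (2.62), dpy-10 (2.04) and dpy-2 (1.73) higher, where 26.9% of 17255 genes were higher and 40.7% lower. In this comparison dpy-8 (-0.86) and dpy-9 (-0.85) lay within 2-fold, and the median over all genes was -0.24.

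**Figure D3:**
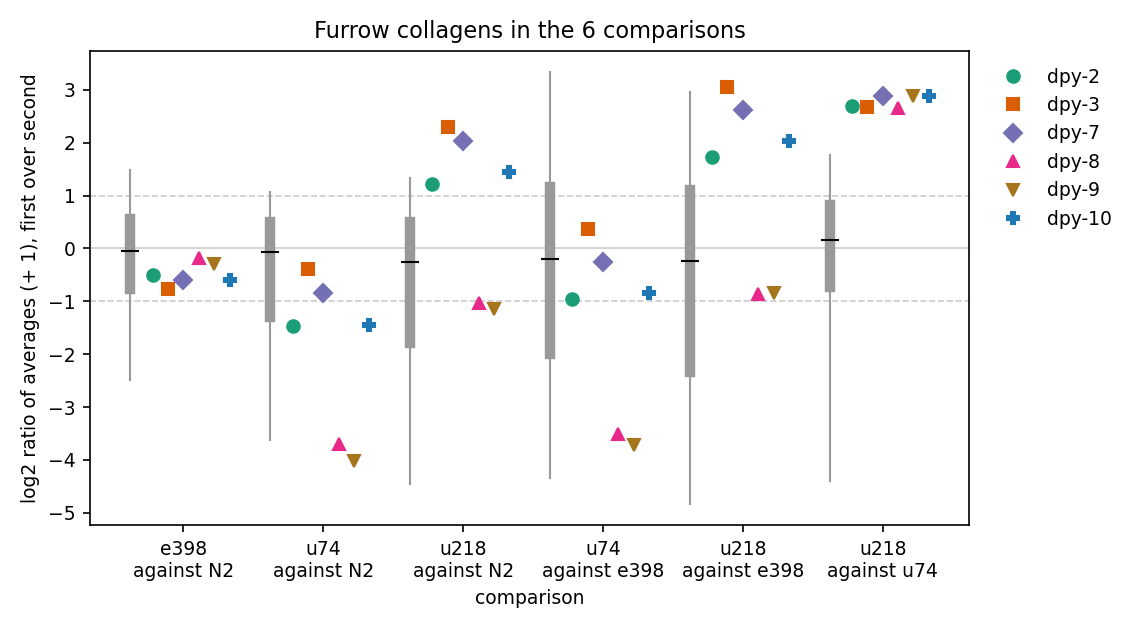
Log2 ratio of averages (each + 1) of the 6 furrow collagens in the 6 comparisons; grey bars span the middle 50% and thin lines the 5th to 95th percentile of all genes considered, the black tick is their median, and dashed lines mark 2-fold. In u218 against u74 all 6 symbols lie between 2.65 and 2.89, above the 95th percentile of 1.76.

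Patterns over the 4 genotypes were compared among 16174 genes averaging at least 50 in 1 or more genotypes, as the distance between log2 profiles after removal of each gene's mean; with 4 points per gene this is a description only. The nearest genes to the mean pattern of the 6 members were the hedgehog-related grd-13 (distance 0.07), M03B6.3 (0.10), rml-4 (0.22), F14F9.8 (0.23) and sdz-24 (0.28). The average of grd-13, for instance, was 1632 (wild type), 1116 (e398), 422 (u74) and 2749 (u218). Nearest to dpy-9 were the collagen gene col-46 (0.10) and the hedgehog-related gene wrt-10 (0.13), and nearest to dpy-8 were col-46 (0.15) and the neuroblast division gene ham-1 (0.16). Nearest to dpy-3 were R57.2 (0.09) and the collagen gene col-17 (0.19), and nearest to dpy-7 were the tetraspanin gene tsp-10 (0.20) and C37E2.2 (0.23). Y105E8A.13 (0.16) and the cuticlin gene cut-6 (0.18) were nearest to dpy-2 outside the members, and the same 2 genes were nearest to dpy-10 (0.27 and 0.28). Among the members themselves, dpy-2 and dpy-10 lay at 0.22 with 3 of all genes closer to dpy-2. The distance of dpy-8 from dpy-9 was 0.24, with 5 genes closer to dpy-8. By contrast, dpy-3 lay at 3.63 from dpy-8, and 66.1% of genes lay closer to dpy-3.

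Collagens that shape the body outside the furrows shared the sign of the furrow medians against wild type in u74, not in e398 or u218. The median log2 ratio of 14 such genes in e398 against wild type was 0.91, where the furrow collagens had -0.55. Of the 14, 6 were at least 2-fold higher, as were 11.4% of all genes. These 6 included bli-6 (2.41) and dpy-4 (1.64). The average of sqt-3, which is needed for viability and body form, was 406094 normalized counts in wild type and 1170043 in e398. In u74 against wild type, 9 of 14 were lower and none higher (median -1.68). Of the furrow collagens, 4 of 6 were lower (median -1.46), and of all genes 29%. The lower body shape collagens included rol-8 (-4.27) and sqt-3 (-3.04), while dpy-5 was at 0.12 and dpy-13 averaged 197932 and 76851. In u218 against wild type, 3 were higher and 7 lower (median -0.94), where 10.4% of all genes were higher and 35.8% lower. The ratios ran from rol-6 (2.01) and sqt-2 (1.74) to bli-2 (-3.34) and bli-6 (-4.07), with bli-1 averaging 40900 and 6665. The average of lon-3, whose loss makes animals long, was 40423 (wild type), 77281 (e398), 6578 (u74) and 14672 (u218). In u218 against u74, 9 of 13 were higher and 2 lower (median 1.16), where all 6 furrow collagens were higher. Of all genes, 18.7% were higher and 20.6% lower in that comparison. The rol-6 gene, whose dominant mutations make animals roll, averaged 14415 (wild type), 11893 (e398), 11307 (u74) and 58163 (u218). Its averages had the same order as those of dpy-2, dpy-7 and dpy-10.

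Genes for the processing of cuticle collagens, enzymes and other factors, differed less in their medians. Of 13 such genes, 1 was higher and 1 lower in e398 than in wild type (median -0.19), 2 were lower in u74 (median -0.41) and 2 lower in u218 (median 0.20). Over all genes, 11.4% were higher and 19.9% lower in e398. The shares of the list that were lower in u74 and u218 lie below the 29% and 35.8% of all genes. The disulphide isomerase gene pdi-2, a subunit of prolyl 4-hydroxylase, averaged 615411, 910469, 94378 and 243155 in wild type, e398, u74 and u218. Its order was e398, wild type, u218, u74.

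Genes reported to be turned on when furrows are lost differed among themselves. Of 11 such genes, 2 were higher and 1 lower in e398 (median log2 ratio 0.52), where 11.4% of all genes were higher and 19.9% lower. In u74, 6 were lower (median -1.07), where 29% of all genes were lower. In u218, 1 was higher and 7 were lower (median -1.19), where 10.4% of all genes were higher and 35.8% lower. The antimicrobial peptide gene nlp-29 averaged 1929 (wild type), 1711 (e398), 920.1 (u74) and 924 (u218). The glycerol synthesis gene gpdh-1 averaged 8999, 11616, 1347 and 2246 in the same order, and the inositol transporter gene hmit-1.1 24465, 35054, 1669 and 4535. The detoxification gene gst-4 averaged 4582, 6874, 639 and 725.5. Not every listed gene had its lowest average in u74, where the summed furrow collagen level was lowest. The lowest ratio to wild type in both mutants was that of the peptide gene nlp-27 (-4.18 in u74 and -4.81 in u218), which averaged 1395 in u74 and 905 in u218. The peptide genes cnc-4 (0.85 and 0.09) and nlp-34 (0.82 and 1.51) had the highest ratios in u74 and u218, and nlp-34 was lowest in e398 (-1.48). In e398 against wild type nlp-30 (1.47) and cnc-2 (1.11) were higher. Of 16 genes that sense or relay furrow loss, none passed 2-fold in e398, and 3 were lower in u74 (median -0.12) and 3 in u218 (median 0.07), a smaller share than the 29% and 35.8% of all genes. The lowest ratios to wild type in u74 and u218 were those of the secreted mucin gene osm-8 (-3.63 and -1.90) and the adaptor gene tir-1 (-2.64 and -1.92), and the highest were those of osm-7 in u74 (0.37) and sta-2 in u218 (0.87).

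More transcription factors of the cuticle and moulting cycle passed 2-fold against wild type in u74 and u218 than in e398. Of 12, 1 was higher and 1 lower in e398 (median log2 ratio 0.06), 6 were lower in u74 (median -0.77), and 5 were higher and 2 lower in u218 (median 0.26). Over all genes, 11.4% were higher and 19.9% lower in e398, 29% were lower in u74, and 10.4% were higher and 35.8% lower in u218. The Grainyhead factor gene grh-1 averaged 1013 (wild type), 174 (e398), 1546 (u74) and 5489 (u218). The zinc-finger gene blmp-1 averaged 2547, 1413, 2615 and 7236, and the Period-related gene lin-42 10997, 8781, 10001 and 27335, in the same order. As for dpy-3, the averages of grh-1, blmp-1 and lin-42 were highest in u218 and lowest in e398. The nuclear receptor gene nhr-23, which drives moulting, averaged 17917, 16199.9, 3625 and 3777. Its order was wild type, e398, u218, u74, the order of dpy-8 and dpy-9. The sizes differed, since u218 against u74 had a log2 ratio of 0.06 for nhr-23 but of 2.65 for dpy-8 and 2.88 for dpy-9. In u218 against u74, 8 of 12 regulators were higher (median 1.40), where 18.7% of all genes were higher. The highest ratios were those of nhr-25 (2.78) and peb-1 (1.94).

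Moulting and apical matrix genes were low in u74 as the furrow collagens were. Of 13, 11 were lower and none higher in u74 than in wild type (median log2 ratio -2.05), where 29% of all genes were lower. The ratios ran from lpr-3 (-4.78) and fbn-1 (-3.73) to noah-2 (-0.57) and mlt-8 (-0.31). In u218 against wild type, 2 were higher and 3 lower (median 0.21), where 10.4% of all genes were higher and 35.8% lower. The highest ratios there were those of noah-2 (2.05), a ZP-domain matrix gene, and mlt-8 (1.28). In u218 against u74, 12 of 13 were higher (median 2.17), where 18.7% of all genes were higher and 20.6% lower. Adult-onset collagen and vitellogenin genes went the other way between these 2 mutants: all 10 were lower in u218 than in u74 (median -8.04), and col-19, an adult cuticle collagen, averaged 26368 (wild type), 15879 (e398), 67364 (u74) and 143 (u218). All 10 had their lowest average in u218, and 7 had their highest in u74, while col-63, vit-3 and vit-4 had theirs in e398. The part of developmental timing in the furrow collagen values was not tested.

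**Figure D4:**
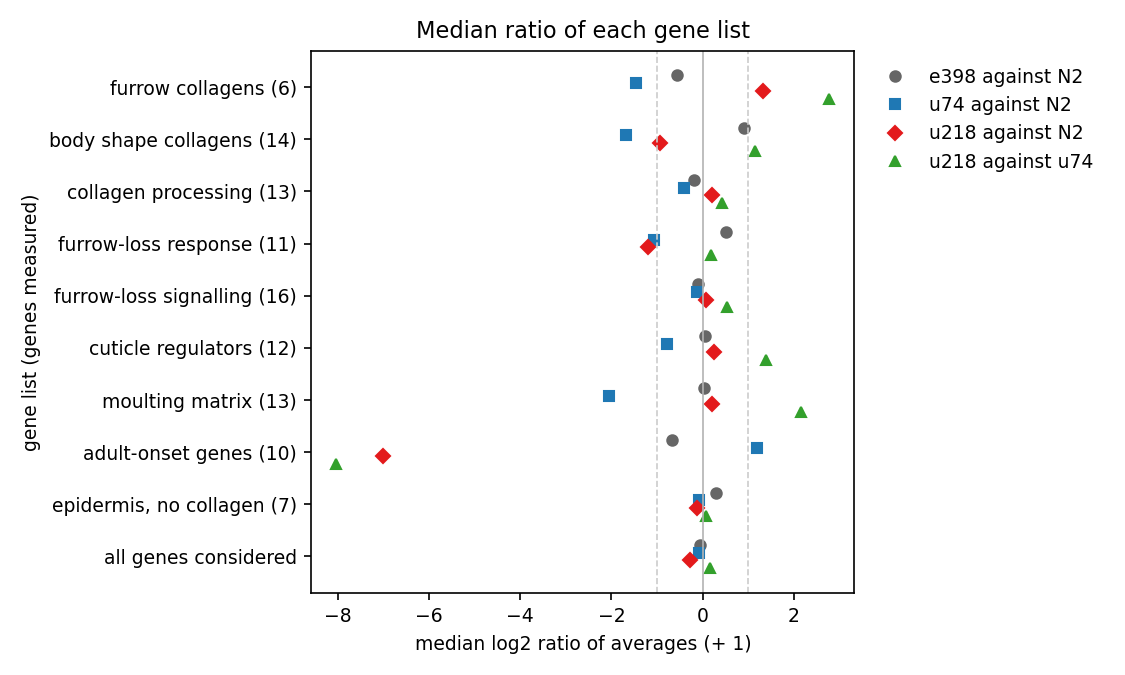
Median log2 ratio of averages (each + 1) of each gene list in 4 comparisons, with the number of genes measured beside its name and dashed lines at 2-fold. Furrow collagens and moulting matrix genes have medians of 2.79 and 2.17 in u218 against u74, where adult-onset genes have -8.04.

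Markers of other cells moved with the genotypes too. The summed average of 7 epidermal genes that are not collagens was 216664 (wild type), 254565 (e398), 141444 (u74) and 145315 (u218), most of it from vab-10, let-805 and mup-4. Within this list the epidermal fate gene lin-26 averaged 4086, 4002, 4650.4 and 4511, and che-14, needed for apical secretion, averaged 3713, 8341, 847 and 2010 (log2 ratio of 1.25 in u218 against u74). In u74 against wild type che-14 (-2.13) and let-805 (-1.23) were lower by more than 2-fold, where 29% of all genes were lower. None of the 7 was higher by that much. In the order wild type, e398, u74 and u218, the sums were 21793, 17529.7, 23988 and 40076 for 8 neuronal genes and 2762632, 4262113, 904998 and 1018043 for 8 body wall muscle genes. Neuronal genes did not all follow their sum, unc-10 having log2 ratios to wild type of 0.37 in e398 and -0.92 in u74. Most of the muscle sum came from pat-10, unc-15 and unc-54, and unc-22 and unc-27 differed the other way, at log2 ratios of 0.48 and 0.25 in u74 and -1.76 and -0.66 in e398 against wild type. For 7 of 8 listed intestinal genes, matched likewise, they were 290608, 179857, 295064 and 489511, mostly from asp-1 (182185 in wild type), and elt-7 differed from the sum, with a log2 ratio to wild type of 1.49 for e398 but of -2.17 for u74 and -1.79 for u218. For 8 germline and oocyte genes the sums were 156848, 72649, 332148 and 62507. Against that sum, glp-4 was lower in u74 (log2 ratio to wild type of -0.49). For 7 of 8 listed sperm genes, those matched to 1 identifier, the sums were 28834, 89653, 31772 and 990.1. Of the e398 sum of sperm genes, 52606 came from msp-59, and msp-10 was lower in e398 than in wild type (-1.11). No gene of these lists was listed at 0 in any genotype. The part of cell make-up in the furrow collagen values was not tested.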

How the data were processed

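The deposited table gives, for each gene and genotype, a signal in averaged normalized counts: read counts that the authors divided by size factors and averaged over the libraries of a genotype, as its name says. Per the submitters' processing notes, bedtools, HTSeq, DESeq and DESeq2 were used; the sources used here give no versions, aligner, build, annotation or strandedness. Identifiers were matched to the WBcel235 annotation (Ensembl release 115), and levels per kb used the union of a gene's exons. Columns for e398, u74, u218 and N2 were matched to groups by their names.

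Genotypes were compared by log2((average + 1)/(average + 1)) among genes averaging at least 20 in either, with 2-fold as the limit for higher or lower; averages have no replicate error and were not tested. Size factors and whole reads per library were read from the steps of the values, below 100 in mutants and 8 in wild type: 99.5% to 99.97% of nonzero values had exactly 1 solution, and at most 0.1% of values moved off their place had any. Recovered libraries are numbered by falling size factor. The 6 comparisons were also tested on recovered reads with limma (trend, log2(normalized count + 1), mean at least 5, Benjamini-Hochberg adjusted p under 0.05). The test was checked on simulated reads with the same spread in every library. That check held no library apart from its group, as was seen in u218, and does not speak for such data. No furrow collagen could enter the test on recovered reads. Nothing says that libraries came from separate cultures, so their spread may be technical. Depth in raw reads is not given.

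The named genes were the 6 members, mec-8, genes fixed by name, the nearest patterns and, of each list, up to 4 from the 2 highest and 2 lowest ratios of the comparison discussed. Not every such gene is named, and the neuronal, germline and sperm lists are given mainly as sums. After their values were seen, unc-54, vit-3, vit-4 and vab-10 were added. The members, the 13 other gene lists and the rules were chosen with earlier results of these data known. Alternatives were pseudocounts of 0.5 and 10, recentring on the median of all genes, TMM factors, no filter, transcript length, and for limma voom and leaving out each library. Sequences of these genes were not used here. Python 3.11.15, pandas 2.3.3, numpy 2.4.6, matplotlib 3.10.9, R 4.3.3 and limma 3.58.1 were used.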

Additional observations from a re-analysis of the deposited data

How the results depend on the processing

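With recentring, TMM factors, the other pseudocounts and no filter, the median ratios of the furrow collagens kept their sign and their side of 2-fold in all 6 comparisons. The counts of members past 2-fold stayed the same except in u218 against wild type. There the 6 past 2-fold became 4 with recentring and with TMM factors, since dpy-8 and dpy-9 came within 2-fold. Scaling to column totals, which ran from 6.31e+07 (u74) to 1.27e+08 (e398), was not among these alternatives. Calls of single members may differ under it. Of the single ratios, dpy-7 in u74 against e398, within 2-fold, moved from -0.25 to 0.11 with TMM factors. No paired analysis was possible because the averages carry no replicate numbers and the recovered libraries none either. The limma counts on recovered reads, which include no furrow collagen, were 31 of 1212 genes in e398, 23 of 599 in u74 and 29 of 679 in u218 against wild type, all of them higher in the mutant under every setting. Wild-type averages could be read only below 8, which limits how low a tested gene could lie in a mutant against wild type: of the genes tested, 537 were at least 2-fold higher and 70 at least 2-fold lower in e398, 134 and 169 in u74, and 236 and 183 in u218. These counts are thus not comparable with those between mutants. Between mutants they were 2230 of 4422 (u74 and e398), 1627 of 4413 (u218 and e398) and 675 of 3883 (u218 and u74).

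Without the filter on low values the first 3 counts were 7, 10 and 10, and with voom they were 418 in e398 and 68 in u218. With each library left out in turn the counts ran from 10 to 70, 5 to 32 and 9 to 33 against wild type, and from 1668 to 2176, 862 to 1685 and 195 to 1687 between mutants. In e398 against wild type the count was 11 or 10 without e398 library 1 or 3, 17, 15 or 15 without wild-type library 1, 2 or 3, and 70 without wild-type library 6. In u74 it was 9, 6 or 5 without u74 library 1, 2 or 3, and in u218 it was 13 or 9 without u218 library 1 or 2. In u218 against e398 it was 928, 862 or 909 without u218 library 1, u218 library 2 or e398 library 1. In u218 against u74 it was 1687 without u218 library 3, 317 or 319 without u218 library 1 or 2, and 333, 195 or 233 without u74 library 1, 2 or 3. The cause of these shifts was not tested.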
